A study of Mus musculus with 11 samples.

Results

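The 9 genes described here lie outside the interval deleted in a mouse model of Williams-Beuren syndrome (WBS) and had different heart mRNA levels in CD and WT mice. CD (complete deletion) mice lack, on one chromosome 5, the segment that corresponds to the human WBS critical region, and WT mice are their littermates without the deletion. The genes are Slc16a7, Slc28a2, Gsta3, Tmod4, Grk5, Unc13b, Mpnd, Fam81a and 2310002L09Rik, 9 of the 22608 genes in the table and all 9 among the 11319 genes expressed well enough to be tested. They were found by Ensembl identifier in the GENCODE M21 annotation of GRCm38. They had been selected on these same mice, because they differed between CD and WT after JZL184 treatment or when treated mice of a genotype were set against vehicle mice of the other. The CD against WT values of these 9 genes below therefore describe what selected them, and where the number past a threshold is given, it shows that selection and is no test of it.

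RNA was sequenced from heart ventricle, as the labels give the tissue, of 11 male mice on a C57BL/6J background, aged 8 to 16 weeks. The 4 groups were WT mice given vehicle (WT VEH, 2 mice), WT mice that received 8 mg/kg JZL184 (WT JZL184, 3 mice), CD mice on vehicle (CD VEH, 3 mice) and CD mice that received 8 mg/kg JZL184 (CD JZL184, 3 mice), each treated for 10 days. JZL184 blocks monoacylglycerol lipase, which breaks down the endocannabinoid 2-AG. The treatment field of the labels calls the vehicle mice untreated, while their titles give vehicle. The deletion removes many genes at once, so that no difference between CD and WT belongs to a single deleted gene. The samples are bulk tissue, in which fewer cells of a type and less RNA per cell cannot be told apart.

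The 9 genes belong to no common pathway. Slc16a7 and Slc28a2 encode membrane transporters, for monocarboxylates such as lactate and pyruvate and for nucleosides such as adenosine. Gsta3 encodes a glutathione transferase that conjugates reactive compounds to glutathione, Tmod4 caps the slow-growing ends of actin filaments, and Grk5 phosphorylates activated G protein-coupled receptors, including the beta-adrenergic receptors of heart muscle. Unc13b (Munc13-2) primes secretory vesicles for fusion, Mpnd holds an MPN domain of the kind found in deubiquitinating enzymes, and Fam81a encodes a coiled-coil protein. 2310002L09Rik is a gene known only by its clone name.

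The libraries held 69660232 to 92251443 estimated counts per mouse. Levels are given in CPM, each mouse's counts relative to its total as adjusted by edgeR's TMM factors, and 3 counts amount to 0.0306 to 0.0435 CPM, which covers counting error only. The 14 tested genes of the deleted interval (chromosome 5, 134237834 to 135350044) had lower levels in all CD mice than in any WT mouse, with Gtf2i at 51.2 to 68.2 CPM in CD and 95.2 to 129 CPM in WT, so the genotype labels held in all 11 libraries. No measured value checked the treatment labels, which were used as deposited and on which every JZL184 value below rests. Cardiomyocyte markers summed to 22900 to 35100 CPM per mouse. A feature of the whole table bears on the comparisons below. Within a treatment, CD and WT differed at an adjusted p under 0.05 for 3440 (VEH) and 4331 (JZL184) genes, whereas CD JZL184 against WT VEH gave 21 and CD VEH against WT JZL184 gave 41 (edgeR's quasi-likelihood test, Benjamini-Hochberg adjustment). The VEH count was 385 without WT VEH mouse C, 1217 without WT VEH mouse D, and 1930 and 1976 without CD VEH mouse A or E. With a mouse left out, the crossed counts ran from 12 (without WT VEH mouse C) to 33 (without WT JZL184 mouse A) and from 28 (without CD VEH mouse A) to 96 (without WT JZL184 mouse A). DESeq2 gave 105 and 222 in the crossed comparisons, and edgeR fitted on only the groups compared gave 88 and 28. The mitochondrial share of counts followed the same division, at 36.4% to 41.2% in CD JZL184 and WT VEH and 43.5% to 46.6% in CD VEH and WT JZL184. The summed endothelial markers did too, at 484 to 560 CPM in CD JZL184 and WT VEH and 629 to 783 CPM in CD VEH and WT JZL184. In CD VEH mouse A the erythroid markers summed to 18800 CPM, against 1420 to 5510 CPM in the other 10 mice, and this library stands apart from the other CD VEH mice.

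In the levels of the 9 genes, 3 patterns were seen. Slc16a7, Grk5, Unc13b and Mpnd were higher and Tmod4 and Fam81a lower in CD, with no overlap between the 6 CD and 5 WT mice whatever the treatment. Gsta3 and Slc28a2 were high in WT JZL184 alone. 2310002L09Rik was lowest in CD JZL184. Of all tested genes, 152 (1.34%) had no overlap between the 6 CD and 5 WT mice, 307 (2.71%) were higher in every WT JZL184 mouse than in the other 8 mice and 583 (5.15%) were lower in every CD JZL184 mouse than in the other 8. Within vehicle alone, 7 of the 9 genes had no overlap between CD and WT (64% of tested genes), and within JZL184 all 9 had none (47.9%). Because the selection used these mice, nothing is read from the share of the 9 genes against these backgrounds.

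**Figure D1:**
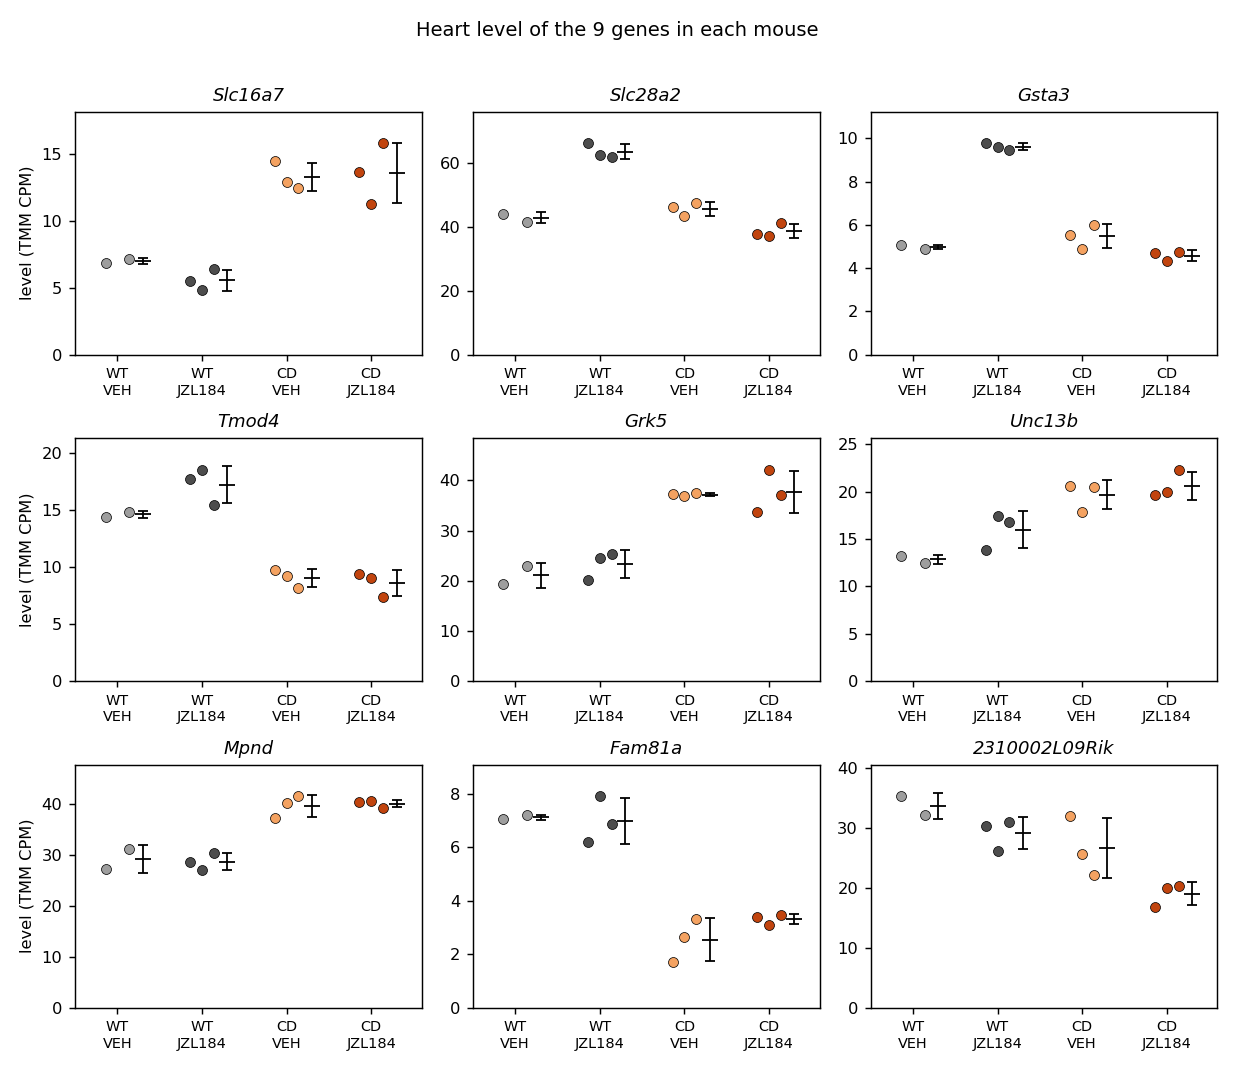
Level of each of the 9 genes (y axis, TMM CPM from 0) in WT VEH (2 mice), WT JZL184, CD VEH and CD JZL184 (3 mice each). Points are mice and the bar beside them is the mean with its SD; Gsta3 and Slc28a2 stand out in WT JZL184 only, and Slc16a7, Tmod4, Grk5, Mpnd and Fam81a separate the genotypes in both treatments.

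Slc16a7 (ENSMUSG00000020102.15; chromosome 10, 125219270 to 125389465, minus strand) encodes MCT2, a high-affinity transporter of pyruvate and lactate. Its level was 14.5, 12.9 and 12.5 CPM in CD VEH mice and 13.7, 11.3 and 15.8 CPM in CD JZL184 mice. In WT mice it was 6.85 and 7.16 CPM after vehicle and 5.48, 4.84 and 6.42 CPM after JZL184. The CD mice were all above the WT mice, and the lowest CD mouse was 1.57 times the highest WT mouse. The mean was 13.4 ± 1.60 CPM in CD (SD, n = 6) and 6.15 ± 0.968 CPM in WT (SD, n = 5), a ratio of 2.18. The log2 fold change of CD against WT was 0.92 within VEH and 1.28 within JZL184, and 0.96 and 1.25 with the treatments crossed.

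Slc28a2 (ENSMUSG00000027219.13; chromosome 2, 122426477 to 122461137, plus strand) encodes CNT2, a sodium-driven transporter that takes up purine nucleosides. It was at 66.0, 62.5 and 61.9 CPM in WT JZL184 mice and at 44.1 and 41.6 CPM in WT VEH mice. In CD mice it was at 46.1, 43.2 and 47.4 CPM after vehicle and at 37.7, 37.2 and 41.3 CPM after JZL184. The 3 WT JZL184 mice stood above the other 8, with a mean 1.5 times theirs, the CD JZL184 mice were all below the WT VEH mice, and CD VEH and WT VEH overlapped. The log2 fold change of CD against WT was 0.09 (SE 0.07) within VEH and -0.71 (SE 0.06) within JZL184.

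Gsta3 (ENSMUSG00000025934.15; chromosome 1, 21240589 to 21265661, plus strand) encodes an alpha-class glutathione transferase. WT JZL184 mice had 9.76, 9.61 and 9.44 CPM and WT VEH mice 5.05 and 4.90 CPM. CD VEH mice had 5.51, 4.90 and 6.01 CPM and CD JZL184 mice 4.68, 4.31 and 4.75 CPM. As for Slc28a2, the WT JZL184 mice were above all others, here with a mean 1.92 times that of the other 8 mice, and the CD JZL184 mice were the lowest group. The log2 fold change of CD against WT was 0.14 (SE 0.10) within VEH and -1.07 (SE 0.09) within JZL184.

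Gsta3 and Slc28a2 lie on different chromosomes but rose and fell in the same mice, so the 250 bases before the start of each (RefSeq, GRCm38.p6) are shown first, at chr1:21240335-21240584 and chr2:122426185-122426434, both on the plus strand. Capitals mark the letters of 4 motifs searched on both strands: GGATTA, bound by the TFII-I family whose genes Gtf2i and Gtf2ird1 lie in the deletion; the E-box CACGTG; TGACNNNGC, the core of the antioxidant response element; and TATAAA.
Gsta3 promoter: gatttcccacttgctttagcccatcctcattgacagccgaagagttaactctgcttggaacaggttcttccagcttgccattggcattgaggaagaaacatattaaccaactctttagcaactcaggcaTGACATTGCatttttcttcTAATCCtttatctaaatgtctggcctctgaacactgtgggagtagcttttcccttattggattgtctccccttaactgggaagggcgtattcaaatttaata
Slc28a2 promoter: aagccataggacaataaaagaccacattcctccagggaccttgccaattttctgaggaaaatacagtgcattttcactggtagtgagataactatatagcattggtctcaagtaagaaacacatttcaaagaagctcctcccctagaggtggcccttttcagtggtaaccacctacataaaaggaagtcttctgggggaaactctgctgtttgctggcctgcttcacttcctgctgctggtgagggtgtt
The Gsta3 promoter held TGACNNNGC on the plus strand, starting 121 bases before the start, and GGATTA on the minus strand, 102 bases before it. The Slc28a2 promoter held none of the 4. Over 32851 mouse promoters of the same length, TGACNNNGC was in 10.2%, GGATTA in 6.25%, CACGTG in 6.02% and TATAAA in 12.4%. A match is a run of letters and not a measured binding site.

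Tmod4 (ENSMUSG00000005628.12; chromosome 3, 95124476 to 95129209, plus strand) encodes tropomodulin 4, the tropomodulin typical of skeletal muscle. It was at 14.4 and 14.8 CPM in WT VEH mice and at 17.7, 18.5 and 15.4 CPM in WT JZL184 mice. It was at 9.74, 9.19 and 8.14 CPM in CD VEH mice and at 9.43, 9.02 and 7.35 CPM in CD JZL184 mice. Each CD mouse was below each WT mouse, with a gap of 1.48 times between the nearest mice. The mean was 16.2 ± 1.83 CPM in WT (SD, n = 5) and 8.81 ± 0.894 CPM in CD (SD, n = 6), and the log2 fold change averaged over treatments was -0.85 (SE 0.08).

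The skeletal muscle marker list moved with Tmod4. Its 8 genes summed to 163 to 228 CPM in WT and 25.1 to 76.6 CPM in CD mice, and nearly all of this was Acta1, the skeletal alpha-actin that the ventricle also expresses. Without Acta1, the other 7 (Myh1, Myh2, Myh4, Tnnt3, Tnni2, Actn3 and Mylpf) summed to 1.70 to 2.91 CPM in CD and 1.97 to 2.65 CPM in WT, with 4 of the 8 listed at 0 in at least 1 mouse. These 7 overlapped between the genotypes, whereas Acta1 did not (22.4 to 74.3 CPM in CD and 160 to 226 CPM in WT). The atrial markers summed to 50.5 to 148 CPM in CD and 111 to 221 CPM in WT, and nearly all of this was Nppa, the gene of atrial natriuretic peptide (49.2 to 146 CPM in CD and 109 to 220 CPM in WT, edgeR adjusted p = 0.175 averaged over treatments). The other 3 atrial markers overlapped between the genotypes, with Sln at 0 to 0.188 CPM, Myl7 at 0.0351 to 0.521 CPM and Myl4 at 0.794 to 1.69 CPM over the 11 mice. The part of skeletal muscle or atrium in the Tmod4 difference was not tested.

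Grk5 (ENSMUSG00000003228.8; chromosome 19, 60889749 to 61095968, plus strand) was at 37.2, 36.9 and 37.4 CPM in CD VEH mice and at 33.8, 42.1 and 37.1 CPM in CD JZL184 mice. It was at 19.3 and 22.9 CPM in WT VEH mice and at 20.1, 24.6 and 25.4 CPM in WT JZL184 mice. The lowest CD mouse was 1.33 times the highest WT mouse. The CD VEH mice were close together, at 37.2 ± 0.222 CPM (SD, n = 3), and the CD JZL184 mice spread to both sides of them. The ratio of the CD to the WT mean was 1.67, and the log2 fold change stayed between 0.67 and 0.84 in the 4 comparisons of CD with WT.

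Unc13b (ENSMUSG00000028456.18; chromosome 4, 43058953 to 43264871, plus strand) had 20.6, 17.9 and 20.5 CPM in CD VEH mice and 19.6, 20.0 and 22.3 CPM in CD JZL184 mice. WT VEH mice had 13.2 and 12.5 CPM and WT JZL184 mice 13.8, 17.4 and 16.8 CPM. The genotypes did not overlap, but the lowest CD mouse was only 1.02 times the highest WT mouse, a treated one. The log2 fold change of CD against WT was 0.62 (SE 0.11) within VEH and 0.36 (SE 0.09) within JZL184.

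Mpnd (ENSMUSG00000003199.16; chromosome 17, 56005711 to 56016790, plus strand) was at 37.3, 40.2 and 41.6 CPM in CD VEH mice and at 40.5, 40.6 and 39.4 CPM in CD JZL184 mice. WT VEH mice were at 27.3 and 31.2 CPM and WT JZL184 mice at 28.7, 27.2 and 30.4 CPM. CD mice were above WT mice without overlap, by 1.2 times between the nearest mice and 1.38 times in the mean. Its log2 fold change varied least among the 9 genes, from 0.44 to 0.48 over the 4 comparisons of CD with WT.

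Fam81a (ENSMUSG00000032224.14; chromosome 9, 70088511 to 70142560, minus strand) was the member with the lowest counts, 141 to 594 per mouse. WT VEH mice had 7.05 and 7.20 CPM and WT JZL184 mice 6.21, 7.91 and 6.86 CPM, against 1.70, 2.64 and 3.31 CPM in CD VEH mice and 3.41, 3.10 and 3.47 CPM in CD JZL184 mice. The lowest WT mouse was 1.79 times the highest CD mouse, and the WT mean was 2.40 times the CD mean. The lowest value was that of CD VEH mouse A, the library with the high erythroid markers. Without that mouse the averaged log2 fold change was -1.17, against -1.28 (SE 0.13) with it.

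2310002L09Rik (ENSMUSG00000028396.5; chromosome 4, 73939371 to 73950846, minus strand) overlapped between the genotypes. It was at 35.2 and 32.1 CPM in WT VEH mice and at 30.3, 26.1 and 31.0 CPM in WT JZL184 mice. It was at 32.0, 25.6 and 22.1 CPM in CD VEH mice and at 16.8, 19.9 and 20.3 CPM in CD JZL184 mice. Every CD JZL184 mouse was below the other 8, and the highest CD mouse was again CD VEH mouse A. The log2 fold change of CD against WT was -0.34 (SE 0.14) within VEH and -0.62 (SE 0.12) within JZL184.

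Promoters were in the RefSeq table for 8 of the 9 genes, all but Slc16a7. Those of Tmod4 (chr3:95124264-95124513, plus strand), Grk5 (chr19:60889499-60889748, plus strand), Unc13b (chr4:43058703-43058952, plus strand) and 2310002L09Rik (chr4:73950847-73951096, minus strand) are shown because they contrast, 2 holding motifs of the 4 and 2 holding none, in genes that are higher (Grk5, Unc13b) and lower (Tmod4, 2310002L09Rik) in CD. Capitals mark the same motifs as above.
Tmod4 promoter: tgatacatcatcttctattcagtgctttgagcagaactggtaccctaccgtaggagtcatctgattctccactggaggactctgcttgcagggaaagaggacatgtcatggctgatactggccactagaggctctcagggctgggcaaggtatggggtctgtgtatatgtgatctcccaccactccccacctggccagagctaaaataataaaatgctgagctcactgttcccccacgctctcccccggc
Grk5 promoter: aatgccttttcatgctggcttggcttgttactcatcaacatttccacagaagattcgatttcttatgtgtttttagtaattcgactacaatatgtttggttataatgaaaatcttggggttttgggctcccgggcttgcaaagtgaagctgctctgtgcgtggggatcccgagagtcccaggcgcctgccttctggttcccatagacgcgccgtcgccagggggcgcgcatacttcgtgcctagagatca
Unc13b promoter: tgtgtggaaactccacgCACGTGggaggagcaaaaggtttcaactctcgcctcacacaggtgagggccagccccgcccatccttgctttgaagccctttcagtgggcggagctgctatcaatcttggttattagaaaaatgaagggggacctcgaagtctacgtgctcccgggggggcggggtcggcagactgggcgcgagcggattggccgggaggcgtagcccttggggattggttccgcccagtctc
2310002L09Rik promoter: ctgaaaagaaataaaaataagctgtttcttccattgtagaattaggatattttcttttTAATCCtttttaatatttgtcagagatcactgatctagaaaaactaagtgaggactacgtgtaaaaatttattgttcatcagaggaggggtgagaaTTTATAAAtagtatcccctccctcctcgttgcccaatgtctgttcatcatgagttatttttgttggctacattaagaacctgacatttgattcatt
The Unc13b promoter held CACGTG, 233 bases before the start. That of 2310002L09Rik held GGATTA on the minus strand, 192 bases before the start, and TATAAA on both strands in overlapping letters, 96 and 94 bases before it. No motif was shared by the genes of a pattern: GGATTA was in Gsta3 and 2310002L09Rik only, and none of the 4 was in the Slc28a2, Tmod4, Grk5, Mpnd or Fam81a window. GC content ran from 32.4% in 2310002L09Rik to 64.4% in Fam81a, around the median of 52.4% over all promoters.

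The comparisons of CD with WT gave the following counts at an adjusted p under 0.05 (edgeR's quasi-likelihood test, Benjamini-Hochberg adjustment over all tested genes). Those within JZL184 and with the treatments crossed had selected the genes, and the others rest on the same mice. In CD VEH against WT VEH, 6 of the 9 passed, where 30.4% of all tested genes did. In CD JZL184 against WT JZL184 all 9 passed (38.3% of tested genes). With the treatments crossed, 6 passed in CD JZL184 against WT VEH (0.186% of tested genes) and 7 in CD VEH against WT JZL184 (0.362%), and in the contrast averaged over treatments all 9 did (1.09%, or 123 genes). The averaged contrast called 40 genes without either WT VEH mouse, 58 and 69 without CD JZL184 mouse C or E, 71 without CD VEH mouse A and 259 without WT JZL184 mouse B. With a mouse left out, the 6 in CD JZL184 against WT VEH became 0 and 1 without WT VEH mouse C or D, and 2, 3 and 1 without CD JZL184 mouse A, C or E. These shares restate the selection. In CD JZL184 against WT VEH, 7 genes outside the deleted interval passed in edgeR, the 6 members 2310002L09Rik, Grk5, Mpnd, Slc16a7, Tmod4 and Unc13b together with Trim50. Trim50 lies on chromosome 5 next to Fkbp6 at the border of the interval, with 5.66 to 6.90 CPM in CD and 0 to 0.116 CPM in WT mice. In CD VEH against WT JZL184, 27 genes outside the interval passed, 7 of them members. Grk5, Mpnd, Slc16a7, Tmod4 and Trim50 passed in all 4 comparisons. At the threshold, 2310002L09Rik was the last gene inside in CD JZL184 against WT VEH (adjusted p = 0.0382 by edgeR), with Acta1 (0.0519) the first gene outside and Fam81a (0.0611) the first member outside. In CD VEH against WT JZL184, Grk5 (0.0119) was the last member inside and Unc13b (0.248) the first outside.

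**Figure D2:**
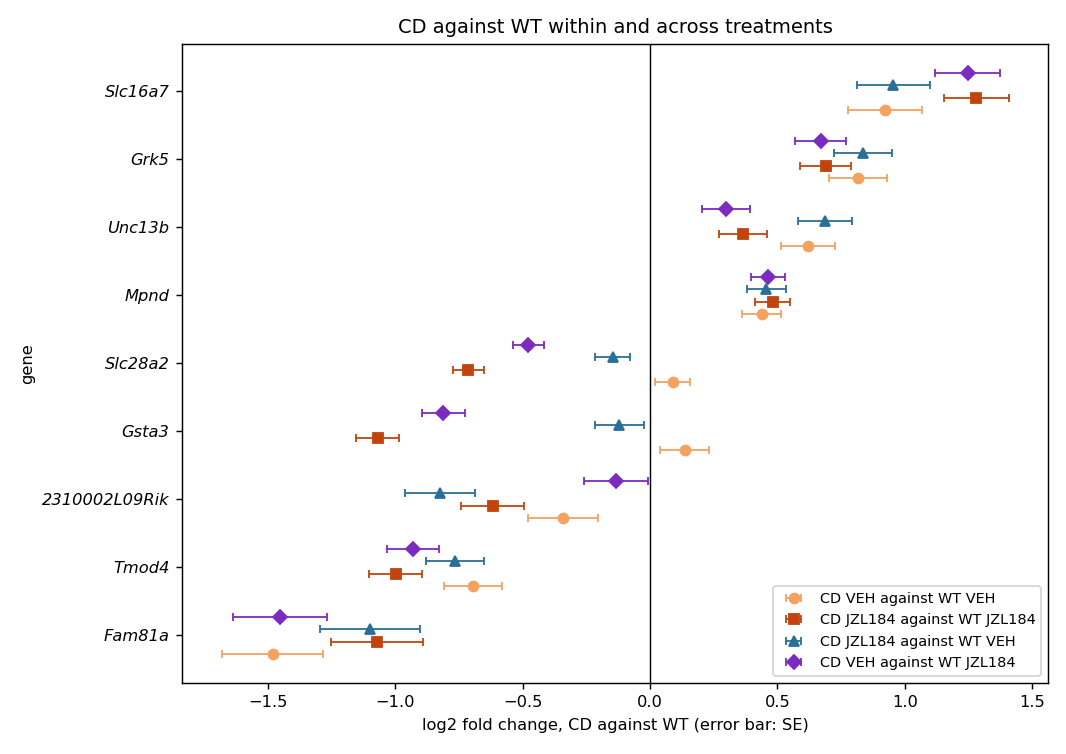
Log2 fold change of CD against WT (x axis, error bar SE) for the 9 genes (y axis), within vehicle, within JZL184 and with the treatments crossed. All but Gsta3 and Slc28a2 keep their side in all 4 comparisons, and these 2 are near 0 in both comparisons that use WT VEH.

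JZL184 was then compared with vehicle within each genotype. These contrasts are differences of those that selected the genes and rest on the same 11 mice, so the members' values are again a description, with the number past the threshold of edgeR's quasi-likelihood test (adjusted p under 0.05) and no p for a single member. In CD mice, 3 of the 9 genes passed, all lower after JZL184, where 33.8% of all tested genes (3831) passed in either direction. Slc28a2 was at a log2 fold change of -0.24 (SE 0.06), from 45.6 ± 2.18 to 38.7 ± 2.23 CPM (SD, n = 3 each). The log2 fold change was -0.26 (SE 0.09) for Gsta3 and -0.48 (SE 0.12) for 2310002L09Rik. None of the 3 passed without CD JZL184 mouse A or without CD VEH mouse A, and only 2310002L09Rik did without CD JZL184 mouse C or without CD VEH mouse E. Over the 18 alternatives Gsta3 lost its call in 11, among them both other filters on low counts and the fit of only the groups compared, Slc28a2 in 4 and 2310002L09Rik in 2. The count over all genes was 2450 and 2150 without CD JZL184 mouse A or E, and 2098 and 2038 without CD VEH mouse A or E.

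In WT mice, 3 genes passed, all higher after JZL184, against 29.4% of all tested genes (3332). The log2 fold change was 0.95 (SE 0.10) for Gsta3, 0.57 (SE 0.07) for Slc28a2 and 0.32 (SE 0.11) for Unc13b. Unc13b did not pass in 7 of the 18 alternatives, and Gsta3 and Slc28a2 passed in all 18. Over all genes, 558 passed without WT VEH mouse C, 1031 without WT VEH mouse D and 2093 without WT JZL184 mouse B.

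The genotype by JZL184 interaction is the JZL184 effect in CD minus that in WT. It passed for 2 of the 9 genes, where 51.5% of all tested genes passed. It was -1.21 on the log2 scale (SE 0.13) for Gsta3 and -0.80 (SE 0.09) for Slc28a2, both of which had been selected through their high level in WT JZL184 mice. For the other 7 genes it did not pass with all 11 mice. It did in 1 alternative each for Slc16a7 (without CD JZL184 mouse C), Fam81a (without CD VEH mouse E) and Unc13b (without WT JZL184 mouse A). Its 95% interval was -0.18 to 0.26 for Mpnd, the narrowest of the 7, and -0.18 to 0.998 for Fam81a, the widest. Among the effects that did not pass within a genotype, that of Mpnd in CD was the smallest at 0.02 (95% interval -0.13 to 0.16) and that of Fam81a in CD the largest at 0.38 (95% interval -0.03 to 0.79). In WT mice, Slc16a7 was at -0.33 (95% interval -0.64 to -0.01) and Tmod4 at 0.23 (95% interval -0.01 to 0.48), neither past the threshold. These intervals are adjusted neither for the selection of the genes nor for the number of genes tested. Averaged over genotypes, 0 of the 9 genes and 0% of tested genes passed in edgeR. At an unadjusted p under 0.05 in edgeR there were 4 of the 9 genes, which had been selected on these mice, and 589 of the 11319 tested genes. DESeq2 called 4 genes in all, Gsta3 among them.

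**Figure D3:**
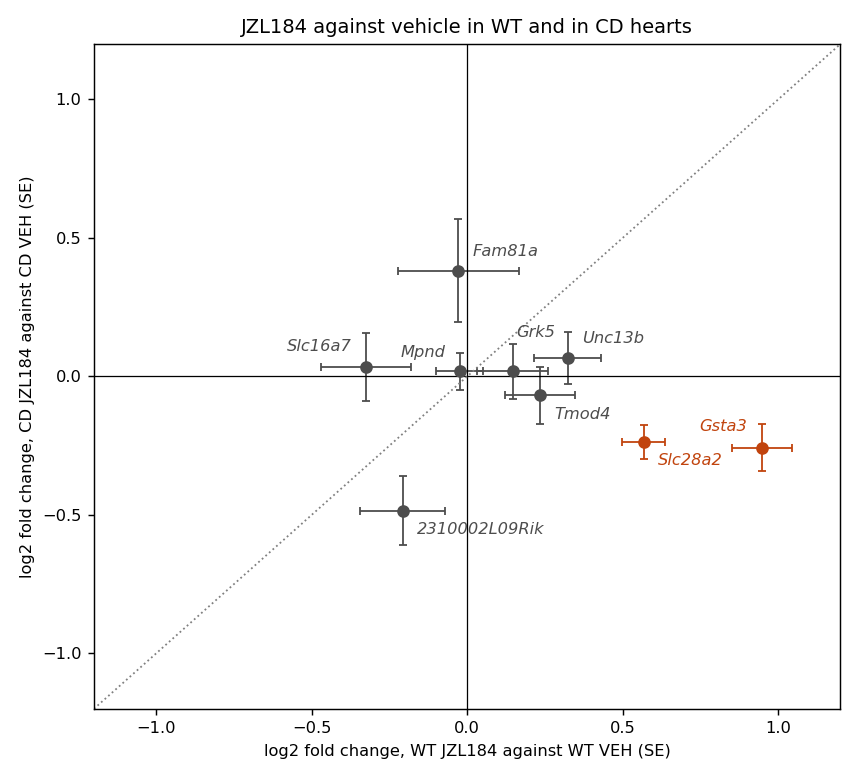
JZL184 effect (log2 fold change against vehicle, bars SE) in WT mice (x axis) and in CD mice (y axis); the dotted line marks equal effects. Gsta3 and Slc28a2, in red, have an interaction past the threshold and lie right of and below 0, at 0.95 and -0.26 and at 0.57 and -0.24.

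Marker lists of several cell types moved with treatment as Gsta3 and Slc28a2 did, and some of the cardiomyocyte markers moved the other way. All 5 endothelial markers rose after JZL184 in WT (sums of 494 and 494 CPM in WT VEH and 759 to 783 CPM in WT JZL184) and 4 of 5 fell in CD (629 to 710 CPM in CD VEH and 484 to 560 CPM in CD JZL184). Of 5 tested leukocyte and macrophage markers, 4 rose in WT and 4 fell in CD, with sums of 180 to 193 CPM in WT VEH, 243 to 420 CPM in WT JZL184, 234 to 314 CPM in CD VEH and 157 to 185 CPM in CD JZL184. Of 3 tested smooth muscle markers, 2 rose in WT (78.7 to 89.6 CPM in WT VEH and 120 to 159 CPM in WT JZL184) and 2 fell in CD (91.1 to 100 CPM in CD VEH and 57.5 to 73.6 CPM in CD JZL184). Of 4 fibroblast markers, 2 rose in WT (600 to 619 CPM in WT VEH and 730 to 902 CPM in WT JZL184) and 1 fell in CD (716 to 820 CPM in CD VEH and 557 to 645 CPM in CD JZL184). All 5 erythroid markers fell in CD, where CD VEH mouse A stands apart, and none passed in WT. Of 6 cardiomyocyte markers, 2 fell in WT and 3 rose in CD, among them Myh6 (log2 fold change -0.49 in WT and 0.45 in CD) and Ryr2 (-0.74 and 0.63). Tnni3 had the direction of Gsta3 and Slc28a2 (0.09 in WT and -0.23 in CD), and Tnni3, Tnnt2 and Actc1 passed in neither genotype. In CD VEH, where the endothelial and leukocyte sums were above those of WT VEH, Gsta3 and Slc28a2 overlapped with WT VEH. The part of these cells in the levels of Gsta3 and Slc28a2 was not tested. The 4 adipocyte markers, all under the expression filter, summed to 0.199 to 0.994 CPM in CD and 0.0781 to 0.196 CPM in WT mice, without overlap between the genotypes, although each of the 4 overlapped, and their part in the members' levels was not tested.

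After subtracting group means of log2 CPM, the correlations of the 36 pairs of members ran from -0.863 to 0.770 (11 mice that share library preparation and scaling). Gsta3 and Slc28a2 had r = 0.986 over the 11 mice and 0.770 within groups, and 0.769 within groups without CD VEH mouse A, a mouse left out after the data were seen. Fam81a and 2310002L09Rik had r = -0.86 within groups, and -0.69 without that mouse, while Fam81a and Unc13b went from 0.16 to 0.81. Over all 11 mice the correlations between members largely restate the selection by genotype. The spread within groups (SD of log2 CPM) was 0.07 for Slc28a2, 0.08 for Mpnd and 0.09 for Gsta3, and reached 0.28 for Fam81a, against a median of 0.10 over all tested genes.

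Outside the 9 genes and the interval, the gene most like each member over the 11 mice (Pearson r of log2 CPM, a description) was Trim50 for Slc16a7 (r = 0.98) and Mpnd (0.96), Cmbl for Tmod4 (0.96), Nptxr for Gsta3 (0.96) and Slc28a2 (0.96), Hdac5 for Grk5 (0.95), Podn for Fam81a (0.94), Ccni for Unc13b (0.93) and Zfp626 for 2310002L09Rik (0.89). The same gene, Nptxr, came first for both Gsta3 and Slc28a2, and Trim67 was lowest for both (r = -0.95 and -0.96). Nptxr itself was at 2.95 CPM on average in WT JZL184 and 2.24 to 2.33 CPM in the other 3 groups. Trim50 was also lowest for Tmod4 (r = -0.98) and highest for the mean of the 9 signed profiles (0.98), with Cmbl lowest (-0.97). The lowest were Il18bp for Slc16a7, P4ha2 for Unc13b, Pbx3 for Mpnd, Fam122b for Fam81a and Wdr34 for 2310002L09Rik, with r from -0.95 to -0.90.

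To see whether whole stretches of chromosome differed, the tested genes within 500 kb of a member were compared between genotypes, averaged over treatments. There were 93 neighbours of 8 members, and Slc16a7 had none. Of the 93, 0 passed edgeR's quasi-likelihood test (1.09% of all tested genes did), 14 had an unadjusted p under 0.05, as did 14.1% of all tested genes, and DESeq2 called 4 (Casc4, Gm11756, Phf24 and Sqor), where it called 3.9% of all tested genes. Their median absolute log2 fold change was 0.06, and the median of all tested genes was also 0.06. The lowest edgeR adjusted p was that of Casc4, 490257 bases from Slc28a2 (log2 fold change 0.20, edgeR adjusted p = 0.0841), the only neighbour without overlap between the 6 CD and 5 WT mice. Gm11756, 18611 bases from 2310002L09Rik, had a log2 fold change of -0.47 (edgeR adjusted p = 0.099), like the -0.48 of its neighbour. The 5 closest neighbours, picked after their values were seen, overlapped a member's span or lay within 1425 bases of it. Beside Tmod4 (-0.85), Scnm1 had a log2 fold change of 0.02 and Vps72 of 0.06. Beside Mpnd (0.46), Sh3gl1 had 0.08 and Stap2 0.17, and beside Grk5 (0.75) Zfp950 had -0.20.

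**Figure D4:**
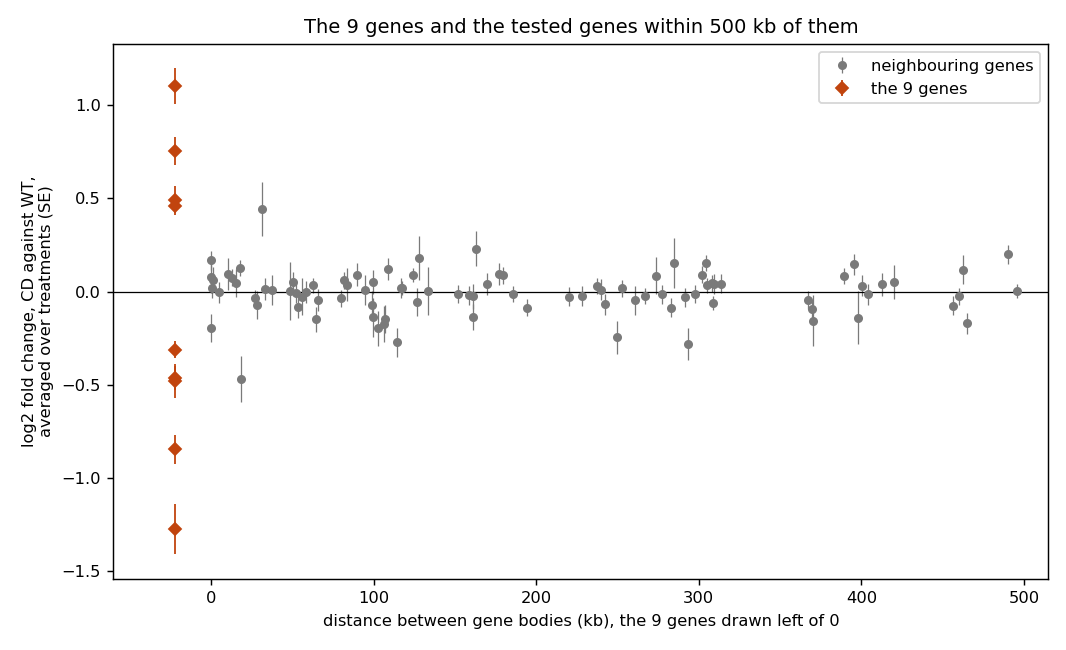
Log2 fold change of CD against WT averaged over treatments (y axis, bars SE) for the 93 tested neighbours by distance from the member (x axis, kb) and for the 9 genes at the left. The neighbours lie between -0.47 and 0.44 and the 9 genes reach -1.28 and 1.10.

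Overlapping genes limit what some counts mean. Mpnd overlaps Sh3gl1 (log2 fold change 0.08) and Grk5 overlaps Zfp950 (-0.20, the other direction to Grk5), and whether the counting used strand is not given in the sources used here. Mpnd also overlaps Gm16276, and Grk5 also overlaps Gm22520 and Gm9529. Slc16a7 overlaps Gm45604 and Gm47862, Gsta3 overlaps Gm28836, and Unc13b overlaps Gm23709 and Gm25010. Slc28a2 holds the pseudogene Gm14086 and has a near copy, Slc28a2b, which was at 0.188 to 0.678 CPM. Estimated counts were whole numbers (within 0.01) in all 11 mice for Tmod4, Mpnd, Grk5 and 2310002L09Rik. They were not whole in most mice for Slc16a7, Gsta3, Fam81a, Unc13b and Slc28a2. Whether the reads of these genes were divided with other transcripts was not tested. Gsta3 has close relatives, of which Gsta1 was at 1.67 to 4.59 CPM, Gsta2 at 0.164 to 0.642 CPM and Gsta4 at 33.8 to 49.1 CPM. In WT mice the log2 fold change after JZL184 was 0.16 for Gsta1 and 0.25 for Gsta4, and neither was past the threshold (edgeR adjusted p = 0.667 and 0.067). In CD mice Gsta4 fell (log2 fold change -0.30, edgeR adjusted p = 0.0192), and its interaction was -0.54 (edgeR adjusted p = 0.00405). Gsta1 passed in neither of these (0.21 in CD and 0.05 for the interaction, edgeR adjusted p = 0.525 and 0.92). Per kb of exon, mean levels over the 11 mice ran from 0.778 CPM for Unc13b to 15.2 CPM for Mpnd.

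Genes with related functions were examined from 8 lists of 119 genes, of which 93 were tested. Averaged over treatments, 3 of the 93 differed between CD and WT, 1 higher and 2 lower, beside 1.09% of all tested genes, and the median absolute log2 fold change was 0.07. Without WT VEH mouse C 0 of the 93 passed, and 5 did without WT JZL184 mouse B or D. The averaged value joins both treatments, and the interaction was called positive for 19 and negative for 29 of the 93 genes, beside 51.5% of all tested genes. Among 21 tested genes of glutathione transfer and synthesis, Gstm2, a mu-class transferase, was higher in CD (51.9 to 71.1 CPM in WT and 70.8 to 78.7 CPM in CD; log2 fold change 0.31, SE 0.05, edgeR adjusted p = 0.0154). Within vehicle the Gstm2 difference was 0.47 (edgeR adjusted p = 0.00336), and its interaction was -0.32 (edgeR adjusted p = 0.021). Mgst1, a microsomal transferase, was lower (21.2 to 38.4 CPM in WT and 16.4 to 22.0 CPM in CD; log2 fold change -0.44, SE 0.09, edgeR adjusted p = 0.0347). Within vehicle, Mgst1 did not differ past the threshold (22.6 CPM in WT and 21.5 CPM in CD on average; log2 fold change -0.08, edgeR adjusted p = 0.678). Its mean was 31.9 CPM in WT JZL184 mice, and its interaction was called (-0.73, edgeR adjusted p = 0.005). The averaged call was lost in 7 of 17 alternatives for Mgst1, each leaving out a CD mouse or a WT VEH mouse, and in 2 for Gstm2 (without CD JZL184 mouse C or WT VEH mouse C). Among 16 receptor kinase, arrestin and signalling genes, Grk3 was lower in CD (11.2 to 12.9 CPM in WT and 7.90 to 10.9 CPM in CD; log2 fold change -0.41, SE 0.06, edgeR adjusted p = 0.00725), a call lost in 1 alternative, without WT VEH mouse C. Within vehicle the Grk3 difference was -0.63 (edgeR adjusted p = 0.00236), and its interaction was 0.44 (edgeR adjusted p = 0.0104). Grk3 thus moved against Grk5, whereas Grk2, the other abundant receptor kinase of heart, differed by 0.08 on the log2 scale (SE 0.04, edgeR adjusted p = 0.449).

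The other lists had 0 genes past the threshold in edgeR's test, while the count at an unadjusted p under 0.05 was 1 of 10 for pyruvate and lactate transport, 4 of 14 for thin filament and filament-end genes, 5 of 13 for vesicle fusion, 1 of 11 for MPN domain genes and 1 of 8 for nucleoside transport and adenosine genes, beside 14.1% of all tested genes. DESeq2 called 12 of the 93 genes, and 3.9% of all tested genes. Tmod1, the main tropomodulin of heart muscle, was at 186 to 276 CPM and differed by -0.03 on the log2 scale between genotypes averaged over treatments (SE 0.06, edgeR adjusted p = 0.887). Within vehicle it was lower in CD (log2 fold change -0.37, edgeR adjusted p = 0.01), and its interaction was 0.68 (edgeR adjusted p = 0.000686). Slc29a1, an equilibrative nucleoside transporter, was at 44.2 to 53.5 CPM with -0.04 (SE 0.05, edgeR adjusted p = 0.793). Slc16a1, the related transporter MCT1, was at 106 to 178 CPM with -0.16 (SE 0.11, edgeR adjusted p = 0.547). Within vehicle the Slc16a1 difference was -0.45 (edgeR adjusted p = 0.0508), and its interaction was 0.57 (edgeR adjusted p = 0.0423). Fam81b, the relative of Fam81a, was under the expression filter.

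In WT mice 27 of the 93 list genes passed, 19 higher and 8 lower after JZL184, and in CD mice 26 passed, 9 higher and 17 lower, beside 29.4% and 33.8% of all tested genes. Of all genes outside the deleted interval, 1746 were higher and 1580 lower in WT, and 1901 were higher and 1925 lower in CD. Among the glutathione genes, 6 of 21 rose and 2 fell in WT mice, and 2 rose and 2 fell in CD mice. Gstt2, a theta-class transferase, rose in WT (log2 fold change 1.0, SE 0.26, edgeR adjusted p = 0.0147), as did Mgst1 (0.49, SE 0.13, edgeR adjusted p = 0.0176). Among the nucleoside genes, 3 of 8 rose in WT and 2 fell in CD. Adora2a, an adenosine receptor, rose by 1.04 on the log2 scale in WT (edgeR adjusted p = 0.000718) and fell by 0.41 in CD (edgeR adjusted p = 0.00972). Entpd1, which breaks down extracellular ATP, rose by 0.62 in WT (edgeR adjusted p = 0.0105) and fell by 0.66 in CD (edgeR adjusted p = 0.00416). In the same list Nt5e (-0.34), Slc29a2 (-0.24) and Adora1 (-0.13) were lower after JZL184 in WT, none past the threshold.

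A set of 4 genes known to differ between C57BL/6 substrains was read as well. Of Nnt, Wdfy1, Ide and Entpd4, 0 passed edgeR's test between genotypes averaged over treatments, 1 had an unadjusted p under 0.05, and DESeq2 called 0 of them. Within vehicle, Nnt (log2 fold change -0.42, edgeR adjusted p = 0.0101) and Ide (-0.30, edgeR adjusted p = 0.0463) were lower in CD, where 30.4% of all tested genes passed. The interaction passed for 3 of the 4 (Nnt, Ide and Entpd4), beside 51.5% of all tested genes.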

How the data were processed

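The deposited table holds estimated counts per gene, which the authors made with Salmon 0.7.2 and did not normalize. Genes were matched by identifier to GENCODE M21 (22315 of 22608). Counts were rounded. Of all genes, 11319 reached a mean log2 CPM of 1 across the 11 mice and entered the tests in edgeR 4.0.16 (R 4.3.3): TMM factors, 1 model with 4 groups and no covariates, the quasi-likelihood test and Benjamini-Hochberg adjustment, with 7 residual degrees of freedom and a common biological coefficient of variation of 9.13%. Adjusted p under 0.05 counted as a call. Standard errors are the log2 fold change over the square root of F. Rounding of divided reads adds error to genes with close copies. Table columns carry a group and a letter that no label explains, used here only to tell the mice of a group apart, and 0 columns lacked a group. Every pair of mice in a group differed by more than sampling noise (chi-square per gene 22.6 to 125).

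The members and the gene lists were chosen with earlier results of these data known. Genes named are the members, the called list genes (at most 3 per list), called neighbours, the most and least alike gene of each member (log2 CPM, prior count 2), cell markers and checks of the labels, and some genes under this rule are not reported here. Casc4, Gm11756, Scnm1, Vps72, overlapping genes, the relatives Gsta1, Gsta2, Gsta4, Slc28a2b, Tmod1, Slc29a1, Slc16a1, Grk2 and Fam81b, the list genes Gstt2, Adora2a and Entpd1, and Trim50 and Acta1 were named after their values were seen. So were the list genes Nt5e, Slc29a2 and Adora1. Alternatives were DESeq2 1.42.0, RLE and upper-quartile factors, no filter, at least 10 counts in every mouse, no mitochondrial genes, only the groups compared, and each mouse left out. The tests were also run on simulated counts, whose means and dispersions came from the fit of these data.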

Additional observations from a re-analysis of the deposited data

Results flagged for a closer look

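The JZL184 effect of Gsta3 was 0.95 on the log2 scale in WT mice and -0.26 in CD mice, a difference of -1.21 past the threshold of edgeR's interaction test. That of Slc28a2 was 0.57 in WT and -0.24 in CD, a difference of -0.80. Both passed in all 17 alternatives. The 2 genes had been selected on these mice through their level in WT JZL184, so the test restates the selection, and an interaction was called for 51.5% of all tested genes. Groups of 2 or 3 mice are too small for the formal test of a single distant mouse.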

How the results depend on the processing

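No paired analysis was possible because the table columns do not carry the replicate numbers of the sample titles. The columns carry letters that recur across groups, but no label says what a letter marks, and no block on letters was fitted. The 3 members called for JZL184 in CD mice became 0 to 3 with a mouse left out, with 0 without CD JZL184 mouse A or CD VEH mouse A, 1 without CD JZL184 mouse C and 2 without CD VEH mouse E (2310002L09Rik and Fam81a). DESeq2 called 1 member (Gsta3) for JZL184 averaged over genotypes, 4 neighbours where edgeR called 0, and 12 list genes where edgeR called 3 (among them Hdac5, Calm3, Neb, Gstm4, Lmod2, Stx4a, Unc13a and Gstp2). A window of 1000 kb gave 1 called neighbour. List genes called numbered 5 without the filter, 5 with at least 10 counts in every mouse, and 0 to 5 with a mouse left out, 0 without WT VEH mouse C and 5 without WT JZL184 mouse B or D. The 6 members without overlap became 7 at most, and the member counts for JZL184 in WT and for the interaction stayed within 1.5 times of their value. The genotype counts of members, recomputed under the same settings after the data were seen, ran from 5 to 7 (CD VEH against WT VEH, 6), 0 to 7 (CD JZL184 against WT VEH, 6), 5 to 7 (CD VEH against WT JZL184, 7) and 7 to 9 (averaged, 9) with a mouse left out, and the 9 in CD JZL184 against WT JZL184 stayed at 9. With a mouse left out, the counts over all genes moved more, as given beside them. Of the other settings, DESeq2 called 442 genes for the averaged genotype contrast and 105 and 222 for CD JZL184 against WT VEH and CD VEH against WT JZL184. Without the filter these were 231, 29 and 72, and 190 genes were called in the averaged contrast with at least 10 counts in every mouse. Fitting only the groups compared gave 88 for CD JZL184 against WT VEH and 1652 for JZL184 in WT. The JZL184 effect of Fam81a in CD was called without CD VEH mouse E.

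No member's averaged genotype change turned in any alternative. The values that turned were small JZL184 differences that were not called. Upper-quartile factors gave 0.013 for Fam81a in WT, -0.01 for Mpnd in CD, 0.016 for Mpnd in WT, -0.026 for the Mpnd interaction and -0.008 for Grk5 in CD. With a mouse left out, the log2 fold change ran from -0.089 to 0.154 for Slc16a7 in CD, -0.138 to 0.032 for Tmod4 in CD, -0.122 to 0.053 for Fam81a in WT, -0.019 to 0.06 for Mpnd in CD, -0.117 to 0.075 for Mpnd in WT, -0.056 to 0.135 for the Mpnd interaction and -0.067 to 0.091 for Grk5 in CD. Leaving out a WT VEH mouse left 1 mouse in that group, assumed to vary like the others. The cause of these changes was not tested.

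The main limits are 2 or 3 mice a group and selection of the genes on the mice described. A further limit is that about as many genes differed by treatment within a genotype as by genotype within a treatment. Averaged over the other factor, edgeR called 0 genes for JZL184 and 123 for genotype. No second set of mice was used.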
